A study of Mus musculus with 8 samples.

Results

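Necroptosis and death receptor signalling were followed through 8 genes in subcutaneous KPC tumours of mice: the receptor Tnfrsf1a, the adaptor Fadd, the protease Casp8, its inhibitor Cflar, the kinases Ripk1 and Ripk3, the membrane-breaking Mlkl and the nucleic acid sensor Zbp1. They were chosen by name for their place in the pathway, each is on 1 row of the 57132 genes of the count table, and all 8 were among the 16588 genes with enough reads to test. KPC is a mouse model of pancreatic cancer. Bulk RNA came from 4 samples of tumours given PBS, a buffered saline, and 4 of tumours given Ce6@D4-EV and light, called PDT (photodynamic therapy) below. The photosensitiser Ce6 (chlorin e6) yields reactive oxygen species under light, and the submitters call its carrier D4-EV. The design asks how the treatment alters the tumour, with cytosolic DNA sensing among its stated interests. The sources used here give no strain, age, sex, light dose or time of harvest, and no arm given only light, or the carrier in the dark, was analysed here. The labels call the tissue sorted and name no gate. Separate animals are not stated for the samples within a group, so the p-values rest on a spread that may not be one between animals.

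As background, the receptor for tumour necrosis factor gathers TRADD and RIPK1 into a complex that, while ubiquitin chains are attached to it, signals survival and inflammation. When those chains are removed, RIPK1, FADD and caspase-8 form a complex that starts apoptosis, and cFLIP, the product of Cflar, sets how far caspase-8 is activated. Caspase-8 also cuts RIPK1 and RIPK3, and where it is blocked RIPK3 phosphorylates MLKL, which then breaks the plasma membrane, a lytic death called necroptosis that releases inflammatory contents. ZBP1 binds nucleic acids in the Z form and recruits RIPK3 directly, ADAR restrains it, and interferon raises its transcript. These steps run on phosphorylation, cleavage and assembly of proteins, and the data here are transcript levels only.

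Zbp1 had the widest gap between the groups, at about 1.87-fold higher in PDT, and it did not pass the threshold over all genes. The other 7 genes lay between 0.947-fold and 1.18-fold of the PBS level. In edgeR's quasi-likelihood test, 0 of the 8 genes passed an adjusted p of 0.05, against 0.235% of all tested genes. At an unadjusted p under 0.05 there was 1 gene, Zbp1, where 16.5% of all tested genes were. DESeq2 called Zbp1 alone (6.36% of the genes to which it gave an adjusted p) and limma-voom called 0 of the 8 (1.01% of tested genes). PDT was higher for 7 of the 8 genes and for 49.8% of all tested genes, and the median log2 difference was 0.20 over the 8 and −0.0022 over all. The groups overlapped in each of the 8 genes, while they did not overlap in 10.1% of tested genes.

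The libraries held 35742024 to 40337306 reads on genes in PBS and 39026840 to 48804713 in PDT. Levels are given in CPM (counts-per-million, after TMM scaling of the library sizes), and a count of 0 allows up to 3 reads, or 0.0872 CPM in PBS 4, where this floor is highest, by counting error alone. The epithelial markers that define the tumour cells (Epcam, Krt7, Krt8, Krt18, Krt19 and Cdh1) summed to 3475 to 7117 CPM in PBS and 3038 to 6109 CPM in PDT. PBS 1 stood apart on the first principal component (25.0% of the variance), at −111.5 against −8.53 to 37.2 for the rest. Macrophage markers were higher in PDT for 10 of 10 genes, with sums of 2019 to 4109 CPM in PBS and 4958 to 6696 CPM in PDT. The summed markers of T cells (6 of 6 higher, 5.89 to 11.1 and 13.4 to 18.7 CPM) and of NK and cytotoxic cells (6 of 6 higher, 2.16 to 6.65 and 11.01 to 16.7 CPM) did not overlap between the groups either. In edgeR 0 genes of either set passed (smallest adjusted p = 0.193 and 0.0678), where 0.235% of all tested genes did. Some had few reads, such as Ncr1 with 52, 0, 0 and 0 in PBS. Cd4 held 4.47 of the mean T cell sum of 8.46 CPM in PBS (log2 difference 0.27 ± 0.25, adjusted p = 0.664 by edgeR). Neutrophil markers were higher in 6 of 6 genes, with overlapping sums of 77.3 to 222 and 153 to 526 CPM. In bulk tissue, fewer cells of a type and less RNA per cell cannot be told apart.

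Stretches of promoter with matches to interferon-response motifs are shown because interferon is a known inducer of this pathway, and because they set the letters beside transcripts that barely differed. RefSeq promoters (GRCm38.p6, 250 bases before to 50 after a start site) were found for 7 of the 8 genes, in 8 promoters, and Zbp1 was not among them. Capitals mark matches on either strand to a pair of interferon half-sites (GAAA repeated after a gap of 2 bases) or to the gamma-activated site (TTCNNNGAA), with 10 bases of flank or up to the end of the window.
Ripk1, from −118 to 15 of its second start site (chr13:34002756-34002888, plus strand): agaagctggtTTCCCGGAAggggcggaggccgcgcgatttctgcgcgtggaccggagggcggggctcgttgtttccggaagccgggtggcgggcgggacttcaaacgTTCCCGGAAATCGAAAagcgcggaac
Cflar, from −4 to 26 (chr1:58711487-58711516, plus strand): ccacgtctgcTTTCGGTTTCtgggcgtctc
Tnfrsf1a, from −250 to −226 (chr6:125349473-125349497, plus strand): gcttccTTCCGTGAAattgacaaca
The Ripk1 stretch holds 2 gamma-activated sites, the second of which overlaps the half-site pair. Of the 8 promoters, 2 held the half-site pair (3.44% of 32851 mouse promoters) and 2 the gamma-activated site (8.3%), and 0 held the NF-kappaB site (8.46%). A match describes the letters in these windows and shows no binding.

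Tnfrsf1a (ENSMUSG00000030341) encodes the receptor through which tumour necrosis factor reaches the death pathway. Its level was 105, 138, 124 and 111 CPM in PBS 1 to PBS 4, and 134, 117, 149 and 149 CPM in PDT 1 to PDT 4. PDT 3 and PDT 4 lay above the PBS libraries, while PDT 1 and PDT 2 lay within their range. The log2 difference was 0.20 ± 0.13 (SE, adjusted p = 0.4995 by edgeR), or 1.15-fold with a 95% interval of 0.941 to 1.41. Intervals here are for single genes, with no adjustment for their number. Correcting for the GC content and length of transcripts left 0.017.

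**Figure D1:**
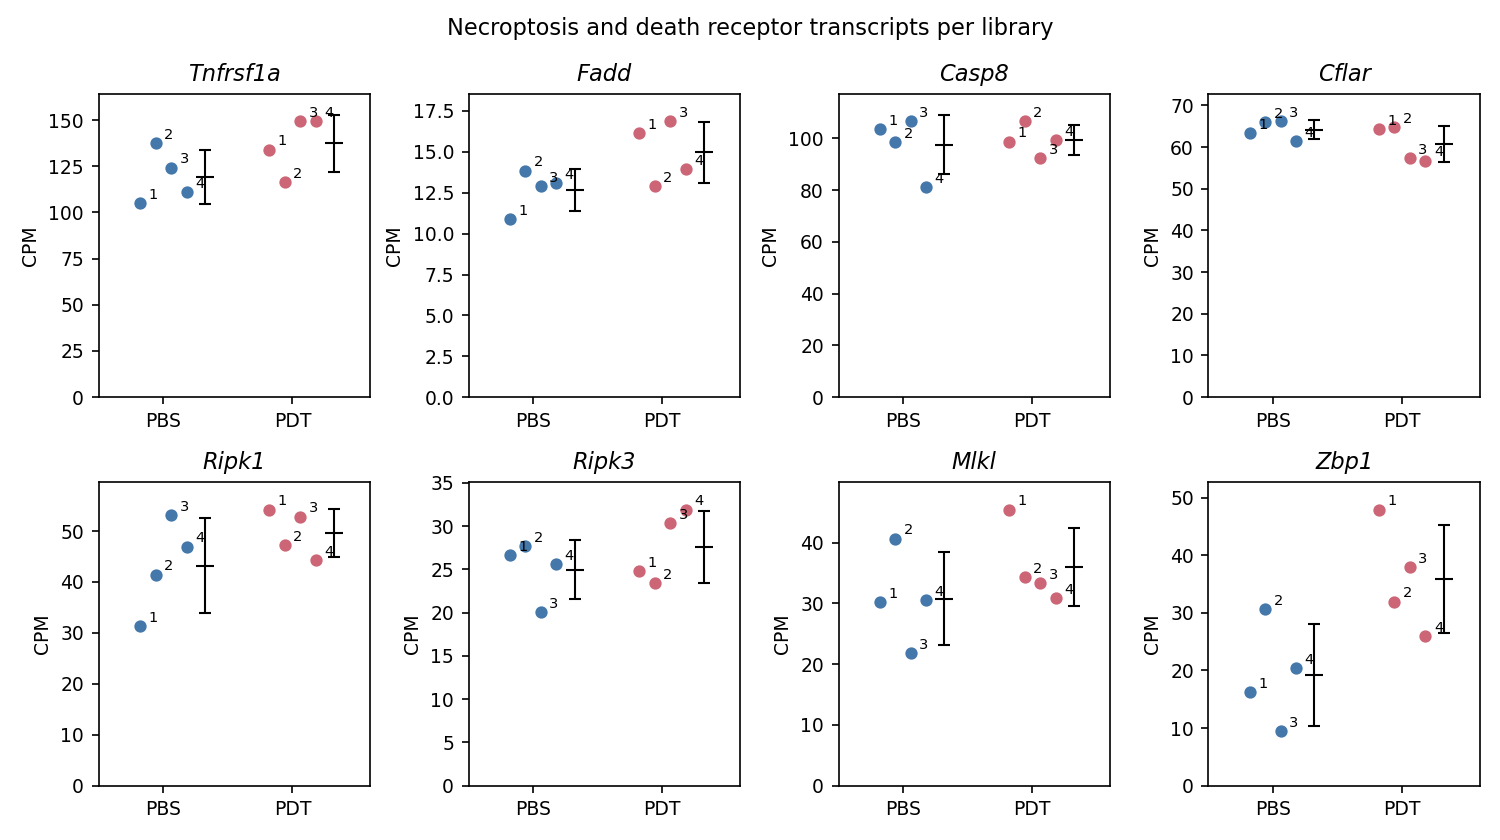
Counts-per-million (CPM, y axis, from 0) of the 8 genes in each library; points are libraries, numbered by replicate, with PBS in blue and PDT in red, and the black bars are mean ± SD of 4 libraries. Zbp1 runs from 9.54 to 30.7 CPM in PBS and from 26.0 to 47.9 CPM in PDT, and the groups overlap in every panel.

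Fadd (ENSMUSG00000031077), the adaptor that links death receptors to caspase-8, had the lowest mean level of the 8 in CPM in both groups. It stood at 10.9, 13.9, 12.9 and 13.1 CPM in PBS and at 16.2, 12.9, 16.9 and 13.9 CPM in PDT, where PDT 1 and PDT 3 were the high libraries. PDT minus PBS was 0.24 ± 0.17 on the log2 scale (adjusted p = 0.533 by edgeR), a fold of 1.18 with an interval of 0.915 to 1.52. An antisense gene, Faddos, overlaps its exons in the GENCODE annotation, and since the strand setting of the counting is not given the reads of the pair cannot be told apart.

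Casp8 (ENSMUSG00000026029), the protease that starts apoptosis and holds back necroptosis, was the flattest of the 8 genes. Its levels were 104, 98.5, 107 and 81.3 CPM in PBS and 98.8, 107, 92.5 and 99.4 CPM in PDT. PBS 4 was the lowest library of all 8, and the rest lay within 92.5 to 107 CPM. The log2 difference of 0.026 ± 0.12 (adjusted p = 0.949 by edgeR) had an interval of 0.846-fold to 1.23-fold, and was −0.038 without PBS 4.

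Cflar (ENSMUSG00000026031), whose product resembles caspase-8 and controls it, was the 1 gene of the 8 with a lower mean in PDT. It was at 63.3, 65.9, 66.3 and 61.4 CPM in PBS and at 64.4, 64.8, 57.4 and 56.8 CPM in PDT. PDT 3 and PDT 4 were below the PBS libraries and PDT 1 and PDT 2 within their range. On the log2 scale PDT minus PBS was −0.079 ± 0.11 (adjusted p = 0.795 by edgeR), a fold of 0.947 with an interval of 0.7997 to 1.12, and turned to 0.17 after the GC and length correction.

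Ripk1 (ENSMUSG00000021408), the kinase at the fork between survival and death, was at 31.3, 41.5, 53.1 and 47.0 CPM in PBS and 54.2, 47.3, 52.8 and 44.2 CPM in PDT. PBS 1 lay below the other 7 libraries, which shared one range. The log2 difference was 0.20 ± 0.16 (adjusted p = 0.603 by edgeR) and 0.076 without PBS 1, with an interval of 0.896-fold to 1.47-fold. It was 0.42 after the GC and length correction. Serpinb6a on the opposite strand and the pseudogene Gm17084 overlap exons of Ripk1 in the GENCODE annotation, so part of its reads is uncertain.

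Ripk3 (ENSMUSG00000022221), the kinase that activates MLKL, stood at 26.6, 27.7, 20.03 and 25.6 CPM in PBS and at 24.8, 23.4, 30.4 and 31.9 CPM in PDT. The treated libraries split, with PDT 3 and PDT 4 above all of PBS and PDT 1 and PDT 2 inside its range. In log2 terms the groups differed by 0.14 ± 0.16 (adjusted p = 0.728 by edgeR), with an interval of 0.866-fold to 1.41-fold, and −0.043 after the GC and length correction.

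Mlkl (ENSMUSG00000012519), the executor of necroptosis, was at 30.2, 40.7, 21.8 and 30.5 CPM in PBS and at 45.4, 34.4, 33.4 and 30.9 CPM in PDT. PBS 2 was higher than all PDT libraries but PDT 1, and PBS 3 was the lowest of the 8. PDT minus PBS came to 0.23 ± 0.19 in log2 (adjusted p = 0.623 by edgeR), a fold of 1.17 with an interval of 0.872 to 1.57. It was 0.39 without PBS 2 and 0.093 without PBS 3.

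Zbp1 (ENSMUSG00000027514), the sensor that can start necroptosis without a death receptor, was at 16.2, 30.7, 9.54 and 20.4 CPM in PBS and at 47.9, 32.0, 37.9 and 26.0 CPM in PDT. Only PDT 4 reached into the PBS range, where PBS 2 was the highest library, and PBS 3 had the lowest level of all. Group means were 19.2 ± 8.84 and 35.9 ± 9.36 CPM (SD, n = 4). The log2 difference was 0.90 ± 0.31 (SE, adjusted p = 0.174 by edgeR), a 1.87-fold difference with an interval of 1.18 to 2.98. DESeq2 gave an adjusted p of 0.0452 and limma-voom one of 0.135, and over all alternatives that give one the adjusted p ran from 0.0361 to 0.379. With 1 library left out the log2 difference ran from 0.68 (without PBS 3) to 1.23 (without PBS 2).

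Macrophage, T cell and NK and cytotoxic markers had higher means in PDT, as Zbp1 had, with the sums given above. Within the groups they did not follow Zbp1 throughout. PBS 1 had the highest macrophage sum of PBS, 4109 CPM, with Zbp1 at 16.2 CPM. PDT 4 had the highest NK and cytotoxic sum, 16.7 CPM, and the lowest Zbp1 level of PDT, 26.0 CPM. PBS 3, the library lowest in Zbp1, Mlkl and Ripk3, also had the lowest macrophage sum, 2019 CPM, and the highest epithelial sum, 7117 CPM. Set against the summed macrophage markers of its own library, Zbp1 was at 3.95, 8.35, 4.73 and 6.35 CPM per 1000 CPM of markers in PBS and at 7.16, 5.44, 7.64 and 5.04 in PDT. On this scale, which was added after the values were seen, all PDT libraries lay within the PBS range. The means of its log2 values differed by 0.15. That is a plain difference of means, whereas the 0.90 without the markers came from the edgeR fit, so they are not the same measure. Most of the sum was 1 gene, Lyz2, with means of 1855 of 3253 CPM in PBS and 3553 of 5669 CPM in PDT. The log2 differences of the 10 markers ran from 0.29 to 1.11. The part of macrophages, T cells and NK and cytotoxic cells in the Zbp1 difference was not tested beyond the ratio to this sum.

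**Figure D2:**
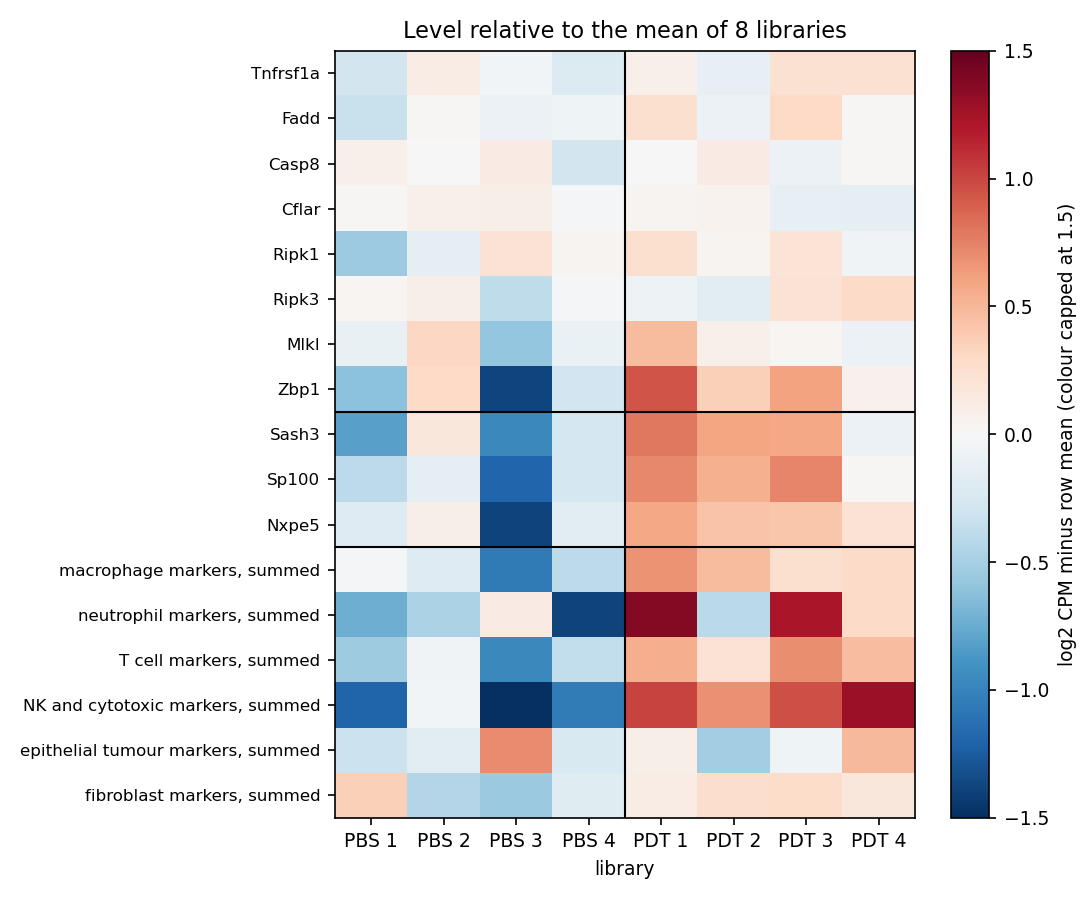
Log2 CPM of each row minus its mean over the 8 libraries (colour, red above and blue below, capped at 1.5), for the 8 genes, the 3 genes with the pattern most like Zbp1 and the summed markers of 6 cell types. PBS 3 is the bluest library for Ripk3, Mlkl, Zbp1 and macrophage markers (2019 CPM) and the reddest for epithelial tumour markers (7117 CPM).

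The genes whose centred log2 CPM over the 8 libraries lay nearest to that of Zbp1, among 13199 genes with a mean of at least 1 CPM, were Sash3, Sp100 and Nxpe5. Their root mean square differences from Zbp1 were 0.20, 0.22 and 0.23 on the log2 scale, where the median gene was at 0.75. Sash3, a signalling adaptor of lymphocytes, was at 9.31 to 20.6 CPM in PBS and 17.2 to 31.7 CPM in PDT. Sp100, a nuclear body protein known to be induced by interferon, was at 10.9 to 22.5 and 25.2 to 41.5 CPM, and Nxpe5 at 7.83 to 21.8 and 23.95 to 30.8 CPM, both without overlap. Their log2 differences were 0.90 ± 0.27, 0.97 ± 0.23 and 0.73 ± 0.26 (SE, adjusted p = 0.13, 0.0891 and 0.189 by edgeR). For Tnfrsf1a the nearest were Chmp7, Dgkz and Stat6, at 0.048, 0.077 and 0.078, and for Fadd they were Pef1, Zscan29 and Isyna1, at 0.039, 0.069 and 0.081, against medians of 0.35 for both.

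Per kilobase of the longest annotated transcript, the order of the transcripts in PBS ran from the receptor down to the adaptor. Tnfrsf1a was at 55.4 ± 6.76 CPM per kilobase (SD, n = 4) and Casp8 at 37.7 ± 4.40. Mlkl (15.4 ± 3.85), Ripk3 (12.7 ± 1.73) and Cflar (9.77 ± 0.349) followed, and Mlkl and Ripk3 did not differ beyond their spread. Ripk1 (6.68 ± 1.43) and Zbp1 (5.78 ± 2.66) could not be separated either, and Fadd was lowest at 3.25 ± 0.324. In PDT, Zbp1 stood at 10.8 ± 2.81 CPM per kilobase, with Cflar at 9.26 ± 0.662 and Ripk1 at 7.67 ± 0.725. It differed from Cflar by less than its own SD. The lengths come from an annotation of the preceding assembly, and a shorter isoform in use would raise a gene in this order.

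Ratios of reads within a library do not depend on how libraries are scaled, and 3 of them compare a driver with its brake. Cflar to Casp8 sets the inhibitor over the protease, while the others set the driver over the brake. The log2 ratio of Cflar to Casp8 was −0.71, −0.58, −0.69 and −0.40 in PBS and −0.62, −0.72, −0.69 and −0.81 in PDT. PBS 4 had the highest value and PDT 4 the lowest, and the mean difference was −0.11 (two-sided exact permutation p = 0.171, 0.256 after adjustment over 3 ratios). The log2 ratio of Ripk3 to Casp8 was −1.96, −1.83, −2.41 and −1.66 in PBS and −1.99, −2.19, −1.61 and −1.64 in PDT. Its difference of 0.11 (exact permutation p = 0.629, also 0.629 after adjustment) was −0.038 without PBS 3.

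The ratio of Zbp1 to Adar sets the sensor against the RNA-editing enzyme that hides its ligands. On the log2 scale it was −0.32, 0.32, −0.74 and 0.58 in PBS and 1.79, 0.85, 0.78 and 0.32 in PDT. PDT 1 to PDT 3 lay above all PBS libraries and PDT 4 was level with PBS 2. Group means were −0.036 ± 0.60 and 0.94 ± 0.62 (SD, n = 4). The difference of 0.97 did not pass the test (exact permutation p = 0.0571, 0.171 after adjustment). It could not have passed, since the smallest p that 70 assignments allow, 0.0286, also fails after adjustment beside the p-values of the other ratios.

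**Figure D3:**
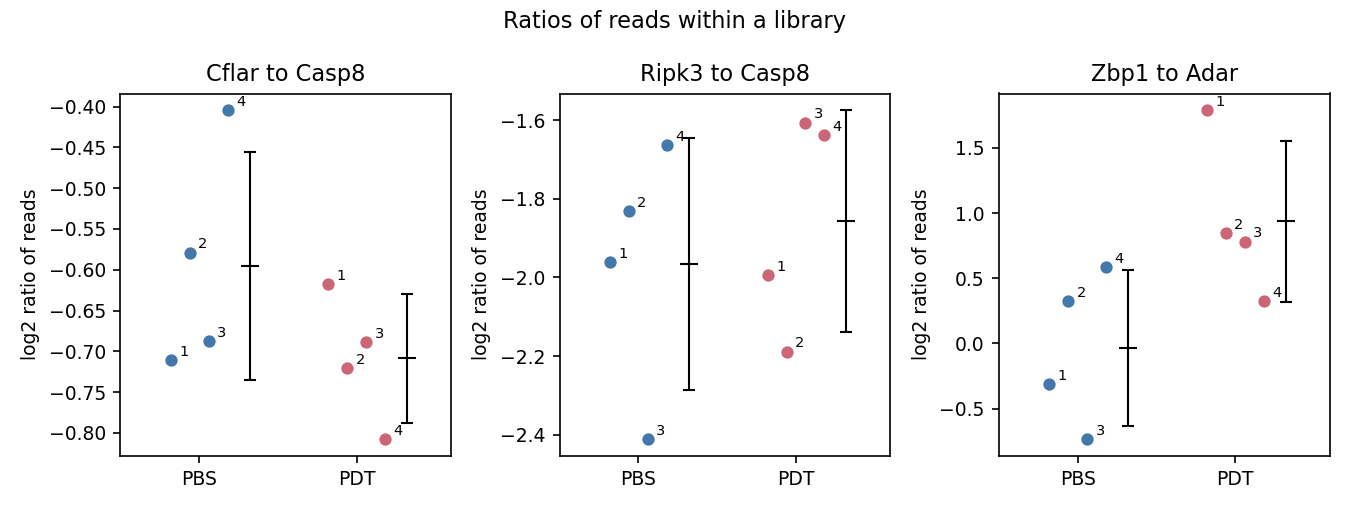
Log2 ratio of reads (y axis, each panel on its own scale) of Cflar to Casp8, Ripk3 to Casp8 and Zbp1 to Adar within each library; points are libraries, numbered by replicate, and black bars are mean ± SD of 4. The Zbp1 to Adar ratio is highest in PDT 1, at 1.79, and the groups overlap in all 3 panels.

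Around these 8, 53 further genes of the pathway were listed by role, of which 51 could be tested and 0 passed in edgeR. At an unadjusted p under 0.05 there were 11 higher and 5 lower in PDT, where 8.63% and 7.87% of all tested genes were. DESeq2 called 4, Tnf, Tnfrsf1b, Tnfrsf14 and Ninj1, all higher in PDT, beside 6.36% of all genes to which it gave an adjusted p. Limma-voom called Ninj1, beside 1.01% of tested genes. The median log2 difference of the 51 was 0.035. In all, 5 genes had all PDT libraries above all PBS libraries (5% of tested genes) and 3 had them below (5.12%).

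Among 6 tested death ligands 5 were higher in PDT. Tnf, the founding ligand of the family, was at 1.52, 4.05, 2.16 and 1.22 CPM in PBS and at 12.9, 2.91, 7.09 and 6.99 CPM in PDT. PDT 2 lay inside the PBS range and PDT 1 was the highest library. Tnf differed by 1.73 ± 0.49 on the log2 scale (adjusted p = 0.117 by edgeR and 0.0123 by DESeq2). Tnfsf12, the ligand TWEAK, was at 6.34 to 13.05 CPM in PBS and 13.02 to 17.7 CPM in PDT, with 0.75 ± 0.24 between the means on the log2 scale (adjusted p = 0.154 by edgeR). Its exons overlap a joint transcript with the next gene (Tnfsfm13), so some of its reads may belong there. Fasl, the ligand of cytotoxic lymphocytes, had 0, 0, 0 and 10 reads in PBS and 6, 24, 14 and 10 reads in PDT, too few to test, as did Lta with 0 to 6 and 0 to 14 reads.

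Of the 8 further receptors, 5 were higher and 3 lower. Tnfrsf1b, the second receptor for tumour necrosis factor, which has no death domain, was at 29.03, 35.2, 30.8 and 39.4 CPM in PBS and 64.1, 43.3, 58.0 and 52.4 CPM in PDT. The groups did not overlap, and the log2 difference was 0.70 ± 0.15 (adjusted p = 0.0765 by edgeR, 0.00447 by DESeq2 and 0.0531 by limma-voom). Tnfrsf14, a receptor of lymphoid and myeloid cells, was at 0.871 to 3.55 CPM in PBS and 4.08 to 8.19 CPM in PDT, which differ by 1.67 ± 0.47 in log2 (adjusted p = 0.114 by edgeR). Fas, the death receptor for Fasl, was at 3.63 to 5.44 and 5.08 to 10.06 CPM (log2 difference 0.82 ± 0.31, adjusted p = 0.206 by edgeR). Tnfrsf10b, the mouse receptor for TRAIL, lay lower in PDT without overlap, at 21.7 to 25.7 and 12.5 to 20.3 CPM (log2 difference −0.58 ± 0.17, adjusted p = 0.134 by edgeR), and was named after its values were seen.

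The 17 genes of the receptor complex and its ubiquitin machinery were split, 8 higher and 9 lower, with log2 differences of −0.26 to 0.39. Birc3, a ubiquitin ligase of RIPK1, was at 18.8 to 24.3 CPM in PBS and 25.4 to 36.98 CPM in PDT, and Rbck1, a part of the linear ubiquitin ligase, at 61.5 to 79.96 and 83.5 to 94.2 CPM. Neither group pair overlapped, and the log2 differences were 0.39 ± 0.16 and 0.29 ± 0.12 (adjusted p = 0.253 and 0.26 by edgeR). Tradd, the adaptor of Tnfrsf1a, was at 31.8 to 49.2 and 28.97 to 40.1 CPM (log2 difference −0.22 ± 0.16, adjusted p = 0.543 by edgeR). Xiap, a caspase inhibitor, and the kinase Ikbkb lay lower in PDT without overlap, at −0.25 ± 0.11 and −0.16 ± 0.11 (adjusted p = 0.292 and 0.507 by edgeR), and were also named after their values were seen.

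Casp6, an effector caspase, was at 71.5 to 82.1 and 59.2 to 84.9 CPM, where PDT 1 was the highest library of all (log2 difference −0.19 ± 0.14, adjusted p = 0.55 by edgeR).

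Among 8 genes of nucleic acid sensing and interferon input, 4 were higher and 4 lower. Adar was at 20.2, 24.5, 15.9 and 13.6 CPM in PBS and 13.8, 17.7, 22.03 and 20.7 CPM in PDT, which on the log2 scale differ by 0.0022 ± 0.22 (adjusted p = 0.999 by edgeR). The double-stranded RNA receptor Tlr3, which reaches RIPK3 through Ticam1, and the endotoxin receptor Tlr4 had lower means in PDT, with log2 differences of −0.46 ± 0.26 and −0.28 ± 0.24 (adjusted p = 0.425 and 0.612 by edgeR). Both overlapped between the groups. Exons of Adar overlap Chrnb2, and those of Tlr3 an antisense gene, on the opposite strand.

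Partners of MLKL and genes of membrane rupture held the smallest adjusted p of the pathway. Ninj1, which ruptures the plasma membrane in some forms of lytic death, was at 109.98, 90.8, 92.7 and 106 CPM in PBS and 249, 126, 179 and 183 CPM in PDT. Every PDT library was above every PBS library, with PDT 2 nearest to them. The log2 difference was 0.88 ± 0.18 (adjusted p = 0.0652 by edgeR, 0.000478 by DESeq2 and 0.0411 by limma-voom), or 1.84-fold. Flot1, a membrane scaffold reported to carry MLKL away from the surface, was at 64.6 to 84.98 and 81.01 to 129.96 CPM (log2 difference 0.53 ± 0.17, adjusted p = 0.154 by edgeR). Neutrophil marker sums were 526, 153, 474 and 248 CPM in PDT 1 to PDT 4, highest in PDT 1 and lowest in PDT 2, as were Tnf and Ninj1. The macrophage sum was also highest in PDT 1, at 6696 CPM. In PBS the neutrophil sum was highest in PBS 3, at 222 CPM, where Ninj1 was at 92.7 and Tnf at 2.16 CPM. Macrophage, T cell and NK and cytotoxic marker sums were higher in each of the 4 PDT libraries than in any PBS library. So were Tnfrsf1b, Tnfrsf14 and Ninj1, whereas Tnf in PDT 2 lay below its level in PBS 2. The part of these cells in the differences of Tnf, Tnfrsf1b, Tnfrsf14 and Ninj1 was not tested.

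**Figure D4:**
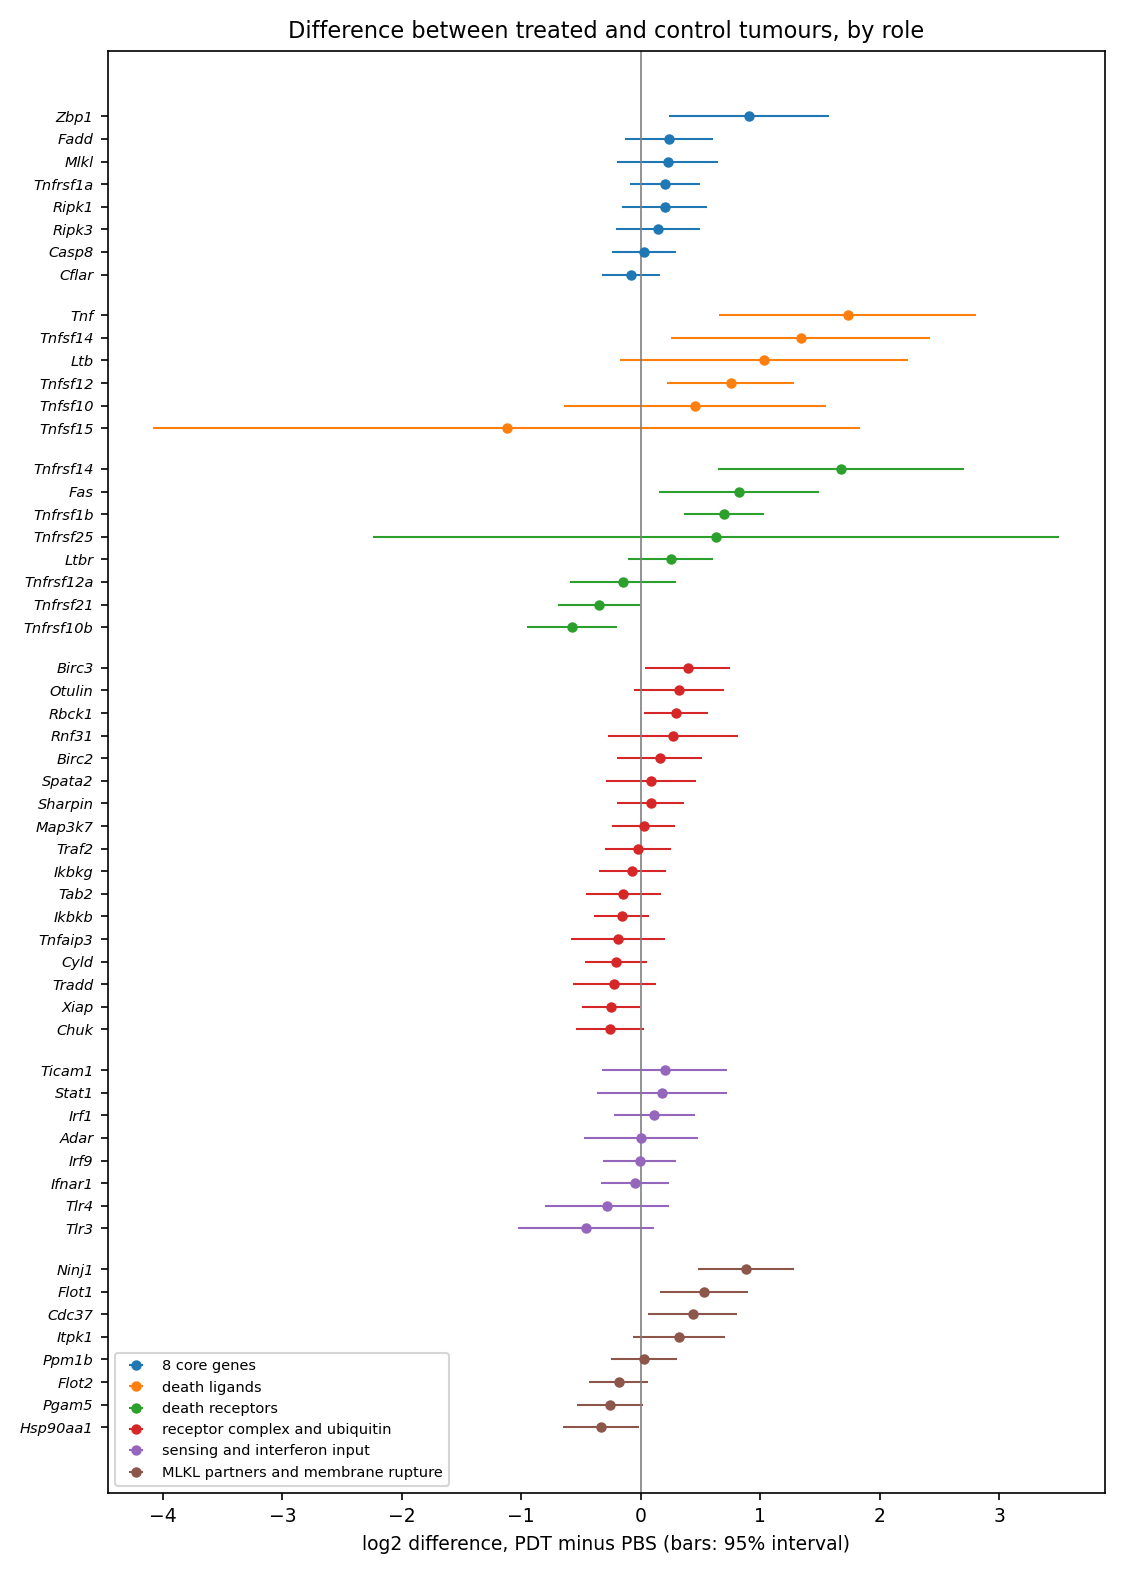
Log2 difference, PDT minus PBS (x axis, points), with its 95% interval for single genes (bars), for the 8 core genes and the tested pathway genes except those downstream of caspase-8, coloured by role. Zbp1, at 0.90, is the 1 core gene whose interval lies above 0. The intervals of 11 pathway genes also do, among them Ninj1, Tnfrsf1b, Tnf and Tnfrsf14. Those of Tnfrsf10b, Tnfrsf21, Xiap and Hsp90aa1 lie below 0.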

How the data were processed

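Per the labels' protocols, ribosomal RNA was removed from total RNA before directional library construction. The authors deposited raw read counts per gene for 8 libraries. Cutadapt 4.6, STAR 2.7.11b and GRCm39 are named in the submitters' processing notes. The sources used here name no counting tool, strand setting or annotation. Of the counts from 1 to 20, 77.9% to 83.8% were even, as when both reads of a pair are counted.

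Genes were kept by filterByExpr, scaled by TMM and tested with edgeR 4.0.16 (R 4.3.3) without covariates, with Benjamini-Hochberg adjustment over all 16588 tested genes. The 484 rows without a symbol held 0.0128% to 0.0176% of reads and were kept. The standard error is the log2 difference divided by the root of F. Log2 CPM used a prior count of 2, and ratios a pseudocount of 1. The fit was tested on simulated data. Lengths and GC content came from GENCODE M21 by identifier. The 8 genes and all lists were chosen with earlier results of these data known. Named besides the 8 genes were the 2 of each role with the smallest p, with Tnf, Fasl, Fas, Tradd and Adar always, and the 3 genes nearest in pattern to each of the 3 core genes with the smallest p. A gene the rule takes is left out here. Alternatives were other scalings and filters, DESeq2 1.42.0, limma-voom (limma 3.58.1), a replicate block, halved counts, a GC and length correction, and each library left out.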

Additional observations from a re-analysis of the deposited data

How the results depend on the processing

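The count of the 8 genes past the threshold, 0 in edgeR, was 1 (Zbp1) with no low count filter and 1 in DESeq2, and 0 in each fit with 1 library left out. Of the pathway genes, 0 in edgeR, 3 passed with no filter, 4 in DESeq2, 1 in limma-voom and 1 with the replicate number as a block, and 0 to 2 with 1 library left out (1 without PBS 4, 2 without PDT 2). Over all genes, 39 passed, against 69 with upper quartile scaling, 534 with no filter, 88 with a filter of 1 CPM in 4 samples, 869 in DESeq2, 167 in limma-voom, 67 with counts divided by 2 and 25 after the GC and length correction. Leaving out PBS 1 to PBS 4 gave 10, 4, 0 and 122, and leaving out PDT 1 to PDT 4 gave 0, 112, 3 and 3. Where edgeR gave 0, 2349 (without PBS 3) and 2162 (without PDT 1) genes had an unadjusted p under 0.05. The cause of these shifts was not tested.

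With the replicate number as a block, 182 genes passed. Same-numbered libraries deviated together at correlations of 0.038 to 0.069 over genes, and 0 of 8 libraries correlated best with their own number. These values give no sign that the numbers pair the samples, but cannot show how the samples were handled. The log2 difference of Zbp1 with the block was 0.98 (adjusted p = 0.158 by edgeR).

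The log2 differences of Tnfrsf1a, Fadd, Ripk1, Mlkl and Zbp1 stayed above 0 in all their alternatives. Casp8 ranged from −0.038 (without PBS 4) to 0.074 with 1 library left out, and Cflar turned to 0.17 and Ripk3 to −0.043 after the GC and length correction. The ratio of Ripk3 to Casp8 differed by −0.038 to 0.22 with 1 library left out, that of Cflar to Casp8 by −0.15 to −0.0496 and that of Zbp1 to Adar by 0.69 to 1.18. With 1 library left out, no ratio passed after adjustment over the 3, where 1 ratio alone cannot reach the threshold. Sign flips over 4 pairs by replicate number, which cannot reach the threshold, changed no direction.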

Other observations

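Beside the genes named by rule, a ligand and receptor pair and a chaperone pair are given, picked after their values were seen. None passed the threshold in edgeR, and the groups overlapped in Tnfsf14, Hsp90aa1 and Cdc37. Tnfsf14, the ligand LIGHT, had group means of 1.0004 ± 0.392 (PBS) and 2.53 ± 0.942 CPM (PDT, SD, n = 4). They differ by 1.34 ± 0.50 in log2 (SE, adjusted p = 0.205 by edgeR), beside the difference of 1.67 of its receptor Tnfrsf14. Hsp90aa1 and Cdc37, the chaperone and the co-chaperone that stabilise RIPK3 and other kinases, differed in opposite directions. Hsp90aa1 was at 653 ± 66.2 and 518 ± 89.8 CPM, or −0.33 ± 0.15 in log2 (adjusted p = 0.273 by edgeR). Cdc37 was at 147 ± 26.7 and 198 ± 40.0 CPM, or 0.43 ± 0.17 in log2 (adjusted p = 0.231 by edgeR). Tnfrsf12a, the receptor for Tnfsf12, had a lower mean in PDT (log2 difference −0.15 ± 0.20, adjusted p = 0.783 by edgeR) while its ligand had a higher one.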
